A study of Canis lupus familiaris with 15 samples.

Results

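Splenic hemangiosarcoma was set against normal spleen in dogs, through the miRNAs of 10 of the 15 small RNA libraries of the series. The 5 hemangiosarcoma samples were pieces of splenic masses from dogs whose owners had the spleen removed for that mass, and the diagnosis was made on tissue next to each piece, with staining for an endothelial surface protein. The 5 spleens called normal by histology came from an archive. Samples of both groups had been flash frozen after removal of the spleen. The labels give no treatment, age, breed or sex for either group, and each library was 1 spleen and 1 biological replicate. The other 5 libraries, of nodular hyperplasia, entered through the shared estimate of the spread, the filter on low counts and the TMM factors, which were set over all 15. Tumor against normal tissue and mass against archive cannot be told apart in this design.

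The members were all miRNAs of the tables. Of 277 miRNAs listed, 263 had reads on an annotated mature sequence, and the 250 with at least 10 such counts over the 15 libraries were tested. A miRNA is a short RNA cut from one arm of a hairpin precursor, and it represses messenger RNAs that match its seed. Neighboring hairpins are often cut from 1 shared transcript. Hemangiosarcoma is a malignant tumor of the cells that line blood vessels, whereas a normal spleen is mostly blood cells, lymphocytes and a contractile stroma, each with miRNAs of its own. In whole tissue, fewer cells of a type and less of its RNA per cell cannot be told apart.

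Mature counts per library were 3040736 to 6562849 in hemangiosarcoma and 4374133 to 7548062 in normal spleen, so 3 counts in a library came to 0.443 to 0.731 CPM and 0.412 to 0.990 CPM in those groups. CPM here are counts per 1000000 of a library size after TMM scaling, a method that centers the bulk of miRNAs on equal levels; because the TMM factors were 0.494 to 1.05 in normal spleen, values can exceed 1000000. The factors were 0.758 to 1.58 in hemangiosarcoma. Values are listed from replicate 1 to replicate 5 of each group, errors are SD over 5 libraries unless given as SE, and a miRNA is called when its edgeR quasi-likelihood test had a Benjamini-Hochberg adjusted p under 0.05 over all 250.

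Mir-143, a miRNA of smooth muscle and fibroblasts, and mir-21, a miRNA raised in many tumors and in activated stroma, together made up much of every library. Mir-143 took 38.0, 31.3, 6.78, 24.8 and 18.2% of mature counts in hemangiosarcoma, against 51.5, 47.6, 34.4, 37.0 and 35.8% in normal spleen. It was the most abundant miRNA in all 5 normal spleens and in 3 of 5 tumors. Mir-21 took 23.9, 11, 40.6, 23.8 and 30.1% of mature counts in hemangiosarcoma, against 4.90, 7.56, 7.16, 7.87 and 11% in normal spleen. It led in hemangiosarcoma replicates 3 and 5, and in 4 of 5 tumors its share was above every normal spleen. The ratio of mir-21 to mir-143 counts, which no library scaling can change, was -0.67, -1.51, 2.58, -0.06 and 0.72 in hemangiosarcoma, against -3.39, -2.65, -2.26, -2.23 and -1.70 in normal spleen on the log2 scale, with no overlap. The pair was chosen with the results known, and the ratio is a description.

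**Figure D1:**
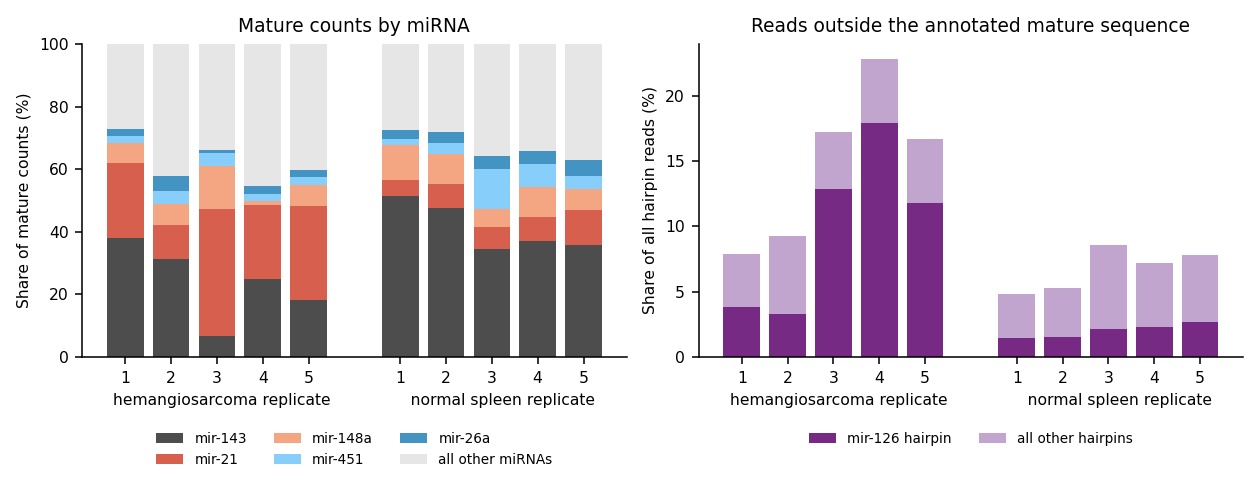
Left, the share of mature counts (%) taken by 5 abundant miRNAs and by all others in each of the 10 libraries. Right, the share of all hairpin reads (%) that lay outside the annotated mature sequence, divided into the mir-126 hairpin and all other hairpins. Mir-143 was at 6.78% to 38.0% in the 5 tumors and 34.4% to 51.5% in the 5 normal spleens, and the mir-126 part was above 3% in every tumor and below 3% in every normal spleen.

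The 10 libraries fell into their 2 groups as far as these samples can show. Of the squared distances in log2(CPM + 1), a share of 0.360 lay between the groups (PERMANOVA, exact permutation over 252 splits, p = 0.00794, the smallest p that 5 against 5 allow). Tumors differed more among themselves than normal spleens did. The distance of a library from the mean of the other 4 of its group was 0.777, 0.968, 1.51, 0.996 and 0.794 log2 units in hemangiosarcoma, against 0.653, 0.401, 0.526, 0.382 and 0.504 in normal spleen, with hemangiosarcoma replicate 3 the farthest. Of the 250 miRNAs, 202 had the larger SD in hemangiosarcoma, with a median SD of 0.637 in hemangiosarcoma and 0.350 in normal spleen.

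Of the 250 miRNAs, 56 were called, 22.4% of those tested. In hemangiosarcoma 34 were higher, 13.6% of those tested, and 22 were lower, 8.80% of those tested. At an unadjusted p under 0.05 there were 84. The falls were mostly of abundant miRNAs, whereas the rises lay at all levels. The mean level had a median over the 34 of 137 CPM in hemangiosarcoma and 19.0 CPM in normal spleen. Over the 22 the median was 2335 CPM in hemangiosarcoma and 5074 CPM in normal spleen. Over all 250 it was 84.8 CPM in hemangiosarcoma and 43.4 CPM in normal spleen. The levels of both groups take part in the calls. When miRNAs were divided by their level in the nodular hyperplasia libraries, which neither group sets, the 83 under 10 CPM held 11 rises and 1 fall, and the 13 at 10000 CPM or more held 2 rises and 8 falls. The share called higher was 13.3% under 10 CPM and highest from 10 to 100 CPM. It was 10.3% from 100 to 1000 CPM, 10.9% from 1000 to 10000 CPM and 15.4% at 10000 CPM or more. The share called lower climbed with level, from 1.20% under 10 CPM to 61.5% at 10000 CPM or more. The median log2 fold change of the 13 at 10000 CPM or more was -0.95 with TMM and -0.32 with library totals.

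**Figure D2:**
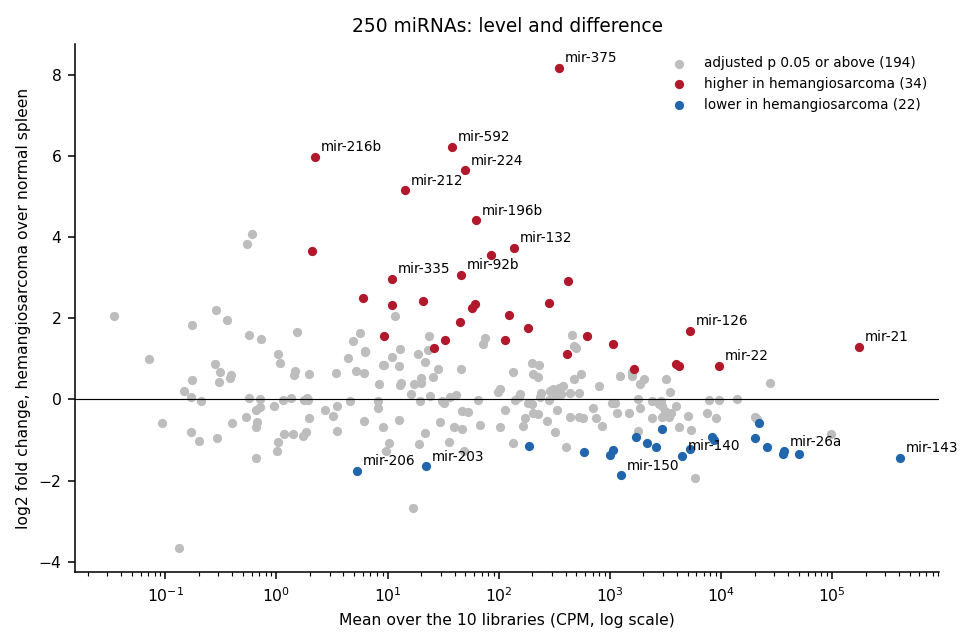
Each point is 1 of 250 miRNAs, with its mean over the 10 libraries (CPM, log scale) on the x axis and its log2 fold change, hemangiosarcoma over normal spleen, on the y axis. The 34 miRNAs called higher lie over a wide range of levels, and the 22 called lower mostly to the right, with mir-143 at the far right.

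How many falls were called depended on the scaling, while the sign of nearly every called change did not. With library totals in place of TMM, 46 miRNAs were called higher, 18.4% of those tested, and 1 was called lower, 0.400% of those tested. All 34 rises were among the 46, whereas of the 22 falls mir-140 alone was called, and let-7g, with 0.018, was the 1 of the 56 whose log2 fold change changed sign. The median log2 fold change over all 250 was 0.03 with TMM and 0.63 with library totals. The falls below are therefore falls relative to the typical miRNA, and except for mir-140 none of them was called with library totals. Overlap between the groups is likewise read in TMM-scaled CPM below, unless a share or ratio is named. Whichever of the 15 libraries was left out, 24 of the 56 calls held, 18 rises and 6 falls, and 19 of the 24 were also called with library totals. The calls numbered 36 when normal spleen replicate 2 or 4 was left out, with 20 rises in the case of replicate 2 and 22 in that of replicate 4. The falls numbered 13 when hemangiosarcoma replicate 3 was left out, 9 in the case of its replicate 5, 11 in that of normal spleen replicate 5, and 14 in that of normal spleen replicate 4 or nodular hyperplasia replicate 3. With limma voom 12 rises were lost, those of mir-92b, mir-592, mir-375, mir-449, mir-221, mir-210, mir-21, mir-196a, mir-9, mir-216b, mir-504 and mir-20b. With the 10 libraries alone 10 falls were called, 6 of them the falls that held in every leave-out.

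**Figure D3:**
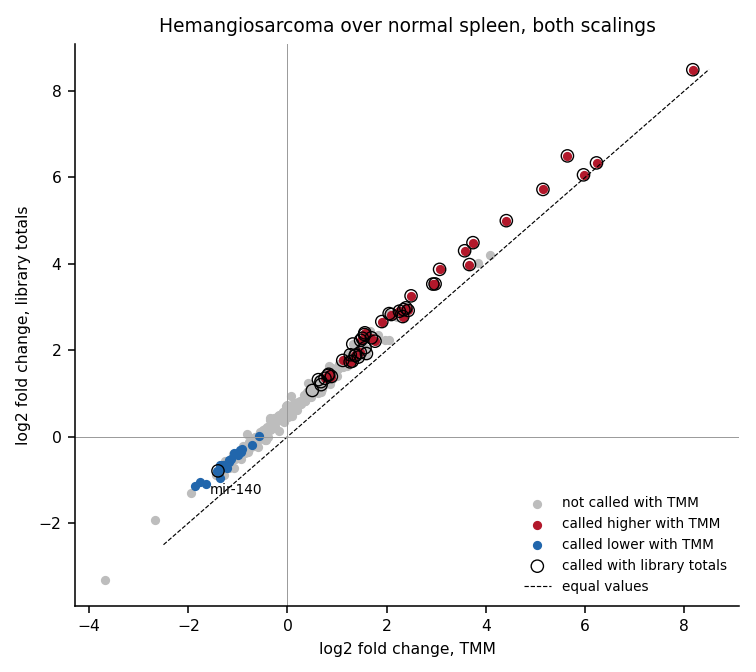
Log2 fold change of each of 250 miRNAs, hemangiosarcoma over normal spleen, with TMM (x axis) and with library totals (y axis); circles mark calls with library totals. All 250 points lie above the line of equal values, so that 46 miRNAs were called higher and mir-140 alone lower with library totals.

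Mir-126, encoded within a gene of the endothelium and the most specific endothelial miRNA known, was higher in every tumor than in any normal spleen. It was at 3791, 3006, 13777, 8519.7 and 11147 CPM in hemangiosarcoma, against 2521, 2161, 2526, 2734 and 2509.7 CPM in normal spleen. Tumor replicates 3, 4 and 5 were several-fold above normal spleen, whereas replicates 1 and 2 were only just above it. The change passed the test (log2 fold change 1.69, SE 0.40, edgeR adjusted p = 0.00761) and was 2.29 with library totals. These values cover a small part of the reads on its hairpin. Reads outside the annotated mature sequence, which would include the opposite arm, made up 90.1% to 94.5% of the mir-126 hairpin's reads in hemangiosarcoma and 90.7% to 92.5% in normal spleen. Of all hairpin reads in a library they took 3.83, 3.29, 12.8, 17.9 and 11.8% in hemangiosarcoma, against 1.42, 1.51, 2.16, 2.33 and 2.69% in normal spleen, again with no overlap. With all reads on the hairpin counted, mir-126 was also called (log2 fold change 1.97, SE 0.42, edgeR adjusted p = 0.00429).

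The mir-126 hairpin alone made most of a difference between whole libraries. All reads outside annotated mature sequences came to 14.8 ± 6.17% of hairpin reads in hemangiosarcoma and 6.72 ± 1.62% in normal spleen (exact permutation, two-sided, p = 0.0159, adjusted over 4 library measures p = 0.0635). Without the mir-126 hairpin, a setting chosen after the values were seen, this share was 5.44 ± 0.831% in hemangiosarcoma and 4.81 ± 1.24% in normal spleen (exact permutation, two-sided, p = 0.357). The other measures were the share of mir-143 (exact permutation p = 0.0317, adjusted p = 0.0635), the share of the 3 most abundant miRNAs (p = 0.667) and the number of miRNAs detected (on average 239 in hemangiosarcoma and 236.2 in normal spleen, exact permutation p = 0.341), and none of the 4 passed after adjustment.

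Of 11 miRNAs listed as endothelial, 4 rose and 1 fell, with a median log2 fold change of 0.82 (1.39 with library totals), beside 0.03 (0.63) over all 250. The other 6 were not called. Counts for this list and those that follow stand beside the 13.6% of all 250 called higher and the 8.80% called lower, and no list was tested as a whole. Mir-221, which restrains the stem cell factor receptor in endothelium, was at 709.9, 708, 2595, 2368 and 1290.0 CPM in hemangiosarcoma, against 361, 414, 659, 664 and 882 CPM in normal spleen, with some overlap (log2 fold change 1.36, SE 0.40, edgeR adjusted p = 0.0245), a call lost without hemangiosarcoma replicate 4 or normal spleen replicate 1 or 2. Its neighbor mir-222 did not pass, with 2258 CPM in hemangiosarcoma replicate 3 and no more than 484 CPM in any other library. With all reads on its hairpin mir-222 was called higher (log2 fold change 1.48, SE 0.45, edgeR adjusted p = 0.0294). It was also called higher with library totals (1.92, edgeR adjusted p = 0.0352). Mir-24 and mir-27a, cut with mir-23a from 1 transcript, rose by 0.82 and 0.88 on the log2 scale, the call of mir-27a ending without normal spleen replicate 1, 2 or 4. Mir-24 was at 4053 to 7641 CPM in hemangiosarcoma, against 2793 to 3208 CPM in normal spleen, without overlap. Reads of mir-24 were counted at both of its identical hairpins, 1 in the mir-23a and 1 in the mir-23b cluster, so that its rise cannot be ascribed to either; mir-23a, mir-23b and mir-27b had log2 fold changes of -0.20, -0.66 and 0.02 and were not called.

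Mir-10a and mir-10b, almost identical miRNAs encoded in HOX gene clusters and found in endothelium, had separate results, and the difference between them was not tested. Mir-10a was at 28712, 18428, 25129, 17277 and 12576 CPM in hemangiosarcoma, against 102331, 56278, 25814, 53154 and 23620.2 CPM in normal spleen. Tumor replicates 1 and 3 overlapped the normal spleens, and its fall (log2 fold change -1.35, SE 0.40, edgeR adjusted p = 0.0245) was lost without any of 4 libraries (hemangiosarcoma replicates 4 and 5, normal spleen replicates 1 and 2; -1.53 to -0.96 over the 15 leave-outs). Mir-10b was at 20374, 7003, 76795, 19053 and 35097 CPM in hemangiosarcoma, against 47599, 23688, 11017, 24236 and 12938 CPM in normal spleen and was not called; its log2 fold change of 0.41 was -0.056 without hemangiosarcoma replicate 3.

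Mir-132 and mir-212, neighbors cut from 1 transcript that growth factor signals switch on in human endothelium, rose many-fold in 4 of 5 tumors. Mir-132 was at 255, 19.0, 135, 537 and 330.5 CPM in hemangiosarcoma, against 21.1, 22.1, 16.5, 17.0 and 18.9 CPM in normal spleen. Hemangiosarcoma replicate 2 lay among the normal spleens and the other 4 far above all of them (log2 fold change 3.74, SE 0.63, edgeR adjusted p = 0.00163). Mir-212 was at 21.3, 1.33, 25.8, 60.1 and 29.9 CPM in hemangiosarcoma, against 0, 0.455, 0.962, 0.670 and 1.52 CPM in normal spleen. Again replicate 2 lay within the normal spleens and the other 4 tumors far above them (log2 fold change 5.15, SE 0.84, edgeR adjusted p = 0.00163); normal spleen held 0 to 7 mir-212 counts per library. Both calls held in all 15 leave-outs and with every other scaling and tool tried.

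With mir-210, the miRNA most directly induced by low oxygen, they were the 3 that rose of 6 tested miRNAs listed in connection with angiogenesis. None of the 6 was lower, and 34 of 250 rose in all. The median log2 fold change of the 6 was 0.88 (1.47 with library totals), beside 0.03 (0.63) over all 250. Mir-210 was at 156, 46.1, 701, 299 and 220.1 CPM in hemangiosarcoma, against 61.4, 85.1, 78.4, 90.0 and 103 CPM in normal spleen. Replicate 2 was below every normal spleen and the other 4 tumors were above all of them (log2 fold change 1.76, SE 0.55, edgeR adjusted p = 0.0306), a call lost without any of 6 libraries (1.29 to 2.04 over the 15 leave-outs). Mir-378, mir-218 and mir-92a were not called.

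Mir-224 and mir-452, neighbors within an intron of a GABA receptor gene in human, were among the largest rises. Mir-224 was at 56.2, 23.3, 11, 287 and 106 CPM in hemangiosarcoma, against 0.990, 2.50, 2.20, 2.46 and 1.30 CPM in normal spleen. Every tumor was above every normal spleen, over a range of about 11 to 287 CPM among tumors (log2 fold change 5.64, SE 0.96, edgeR adjusted p = 0.00163). Mir-452 was at 193, 64.2, 12.2, 312 and 199.7 CPM in hemangiosarcoma, against 15.8, 9.56, 14.7, 12.3 and 13.2 CPM in normal spleen. Here replicate 3 lay within the normal spleens, and it was also the lowest tumor for mir-224 (log2 fold change 3.57, SE 0.68, edgeR adjusted p = 0.00266). Both calls held in all 15 leave-outs and with library totals.

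Of the 5 tested miRNAs of the mir-424 cluster on the X chromosome, whose leading members share the seed region of the growth-restraining mir-16, 4 rose and none fell, with a median log2 fold change of 2.39. Mir-450a was at 300.1, 229, 1180.1, 1212 and 811 CPM in hemangiosarcoma, against 61.0, 108, 90.7, 107 and 123 CPM in normal spleen. Mir-542 was at 236, 111, 874, 456 and 685 CPM in hemangiosarcoma, against 91.4, 112, 71.3, 77.5 and 99.1 CPM in normal spleen. Tumor replicates 3, 4 and 5 were the highest for both, and mir-542 of replicate 2 lay just within the normal spleens. Mir-503 was at 11.2 to 77.9 CPM in hemangiosarcoma, against 5.13 to 8.42 CPM in normal spleen, and mir-424 at 9.16 to 30.2 CPM in hemangiosarcoma, against 1.79 to 5.86 CPM in normal spleen, both without overlap. On the log2 scale the change was 2.93 (SE 0.61, edgeR adjusted p = 0.00541) for mir-450a, 2.43 (SE 0.54) for mir-503, 2.39 (SE 0.59) for mir-542 and 2.32 (SE 0.60, adjusted p = 0.012) for mir-424. All 4 held in all 15 leave-outs. Mir-450b, at 281 to 997 CPM in hemangiosarcoma, against 192 to 408 CPM in normal spleen, had a log2 fold change of 1.27 and was not called (edgeR adjusted p = 0.099). With library totals mir-450b was called higher (1.90, edgeR adjusted p = 0.0152). The study listed all 5 as higher in hemangiosarcoma than in normal spleen on these samples, so the direction of this list is not independent evidence. The same holds for other miRNAs it listed. Among them were mir-126, mir-452, mir-193a, mir-365, mir-22, mir-139 and mir-188, higher, and mir-150, mir-203, mir-140, mir-26a and mir-30e, lower.

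**Figure D4:**
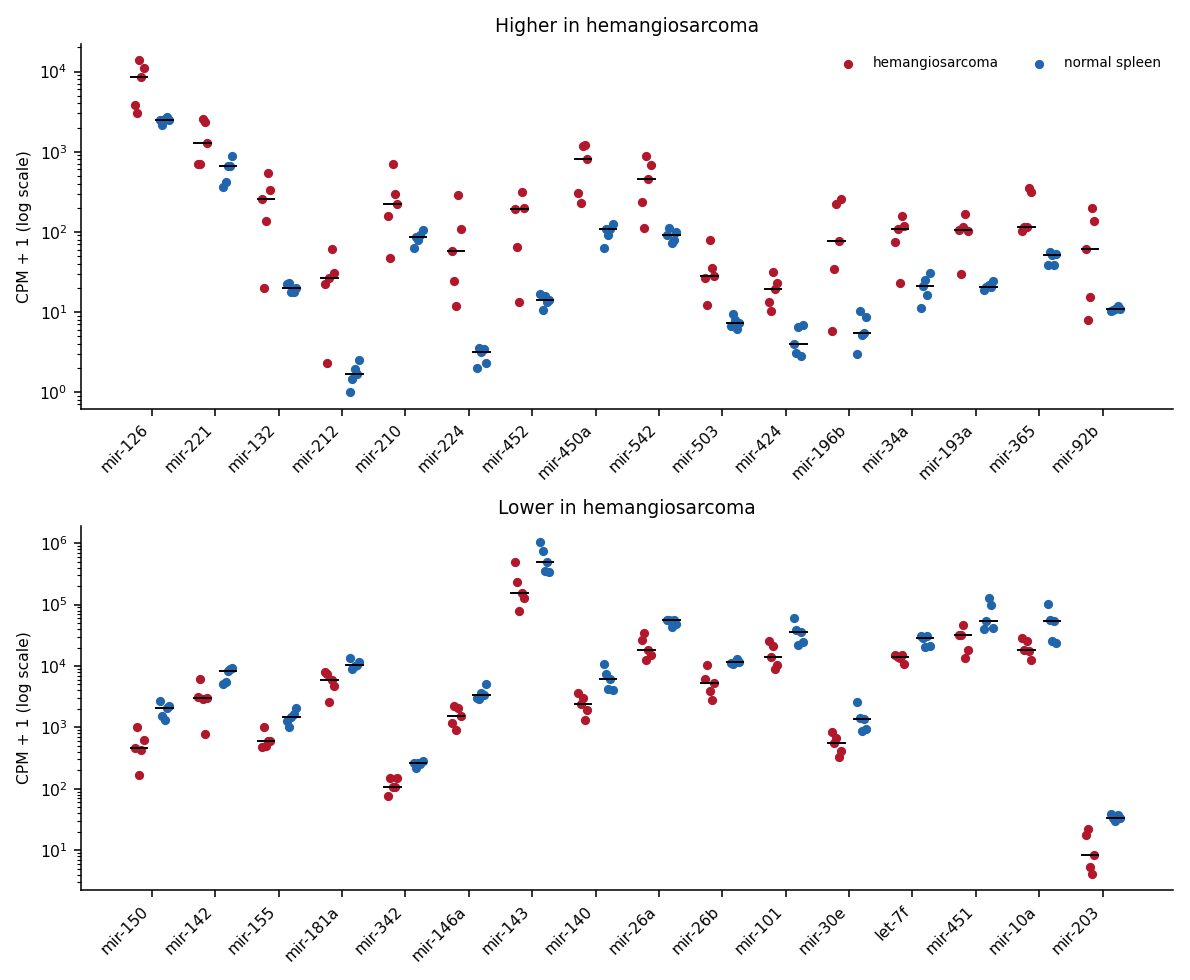
CPM + 1 (log scale) of 16 miRNAs called higher (top) and 16 called lower (bottom) in each library, with hemangiosarcoma at the left and normal spleen at the right of each pair; lines are medians of 5. The tumor points of most rises spread widely, with mir-132 from 19.0 to 537 CPM, against 16.5 to 22.1 CPM in normal spleen; for some falls, such as mir-10a, the normal spleens spread more.

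Mir-196b and mir-196a, which lie in HOX clusters and repress HOX messenger RNAs, also rose. Mir-196b was at 4.82, 33.7, 221, 76.1 and 255 CPM in hemangiosarcoma, against 1.98, 9.33, 4.12, 4.47 and 7.59 CPM in normal spleen. Only replicate 1 lay within the range of normal spleen (log2 fold change 4.41, SE 0.97, edgeR adjusted p = 0.00595), and the call held in all 15 leave-outs. Mir-196a stayed under 3 CPM in all libraries but hemangiosarcoma replicate 3, where it was at 14.9 CPM, and its call ended without that library and without any of 3 others.

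Mir-34a and mir-449, which share a seed and are switched on by the tumor suppressor p53 (mir-34a) and by E2F1 and cilium formation (mir-449), rose, whereas mir-34b and mir-34c of the same family were not called. Mir-34a was at 72.9, 109, 21.7, 155 and 117 CPM in hemangiosarcoma, against 10.2, 20.3, 23.8, 15.4 and 29.5 CPM in normal spleen. All tumors but replicate 3 were above every normal spleen (log2 fold change 2.26, SE 0.48, edgeR adjusted p = 0.00541). Mir-449 was at 2.41 to 34.2 CPM in hemangiosarcoma, against 0.893 to 3.25 CPM in normal spleen, and its high value was that of replicate 4; the call ended without that tumor or without normal spleen replicate 2 or 4 (1.25 to 2.98 over the 15 leave-outs).

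Mir-193a and mir-365 rose in all 5 tumors without overlap. Mir-193a was at 104, 28.6, 113, 164 and 102 CPM in hemangiosarcoma, against 17.8, 19.6, 20.5, 19.6 and 23.0 CPM in normal spleen (log2 fold change 2.35, SE 0.44, edgeR adjusted p = 0.00266). Mir-365 was at 101, 114, 114, 348 and 315 CPM in hemangiosarcoma, against 37.3, 55.1, 50.7, 38.0 and 51.2 CPM in normal spleen (log2 fold change 2.09, SE 0.37, edgeR adjusted p = 0.0021). Tumor replicates 4 and 5 were the highest for mir-365, and its reads were counted at 2 hairpins with nearly equal counts. Mir-193b, which neighbors 1 of these hairpins, stayed at 0.871 to 2.68 CPM in hemangiosarcoma, against 0.687 to 2.31 CPM in normal spleen and was not called. These values rest on 4 to 11 counts per library. Of its hairpin reads, 97.3% in hemangiosarcoma and 97.6% in normal spleen lay outside the annotated mature sequence.

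In the 14 tested miRNAs listed for the growth-promoting mir-17 clusters 2 rose and 1 fell, close to the share over all miRNAs, with a median log2 fold change of 0.14. With library totals 5 of the 14 were called higher and 0 lower, beside 46 and 1 of 250 (median 0.68). Mir-92b is on the list but lay in none of these clusters. The rises lay with hemangiosarcoma replicates 4 and 5. Mir-92b was at 60.5, 6.94, 14.4, 195 and 135 CPM in hemangiosarcoma, against 9.24, 9.56, 9.76, 10.7 and 9.76 CPM in normal spleen. Replicate 2 was below every normal spleen and the other 4 tumors above all of them (log2 fold change 3.07, SE 0.69, edgeR adjusted p = 0.00595). Mir-20b, of the copy of the cluster on the X chromosome, was at 19.5, 22.4, 19.5, 178 and 114 CPM in hemangiosarcoma, against 9.24, 15.9, 20.8, 22.1 and 26.5 CPM in normal spleen, and its call ended without any of 6 libraries (1.21 to 2.34 over the 15 leave-outs). Its neighbors mir-18b, mir-106a and mir-363 were highest in the same tumors, at 54.4, 296 and 1960.0 CPM in replicate 4, and were not called. With library totals they were called higher (edgeR adjusted p = 0.0410, 0.0410 and 0.0480). Mir-17, of the main cluster, had a log2 fold change of 0.10 and was not called either. Of its hairpin reads, 93.9% in hemangiosarcoma and 94.1% in normal spleen lay outside the annotated mature sequence.

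Smaller rises without overlap were those of mir-22, mir-24, mir-125a, mir-139, mir-188, mir-204 and mir-497. Mir-22, an abundant miRNA, was at 13939, 10699, 10889.6, 13369 and 12968 CPM in hemangiosarcoma, against 7637, 6687, 5944, 7022 and 7486 CPM in normal spleen (log2 fold change 0.83, SE 0.25, edgeR adjusted p = 0.0245), a call lost without normal spleen replicate 2, 3 or 4. Mir-125a was at 1928 to 2195 CPM in hemangiosarcoma, against 1090.0 to 1337 CPM in normal spleen (log2 fold change 0.76, SE 0.20, edgeR adjusted p = 0.0145), while mir-99b and let-7e of the same transcript were not called. With library totals mir-99b and let-7e were called higher (1.07 and 1.32, edgeR adjusted p = 0.0418 for each). Mir-497, a relative of mir-16, was at 326 to 809 CPM in hemangiosarcoma, against 175 to 324 CPM in normal spleen and its neighbor mir-195 was not called. Mir-204, known from retinal pigment epithelium, mir-188 and mir-139 rose by 1.47, 1.26 and 1.56 on the log2 scale, calls lost without any of 3, 5 and 6 libraries. Mir-21 itself was at 315348, 82737, 475164, 150592 and 215342 CPM in hemangiosarcoma, against 99124, 118009, 74344, 105441 and 104745 CPM in normal spleen. Replicate 2 was within the normal spleens, and the call (log2 fold change 1.30, SE 0.41, edgeR adjusted p = 0.0315) ended without any of 5 libraries (1.08 to 1.53 over the 15 leave-outs). Mir-335, which lies in the imprinted MEST gene, mir-9, a miRNA of neural cells, and mir-504, known to repress p53 in human cells, also rose, at 3.62 to 41.1 CPM in hemangiosarcoma, against 1.37 to 3.9 CPM in normal spleen, at 234 to 2024 CPM in hemangiosarcoma, against 191 to 381 CPM in normal spleen and at 19.0 to 117 CPM in hemangiosarcoma, against 12.7 to 21.6 CPM in normal spleen. The calls of mir-9 and mir-504 ended without any of 6 and any of 5 libraries; that of mir-335 held in all 15. Mir-9 was counted at 3 hairpins alike, and the summed neural markers, mostly mir-9, were at 235 to 2024 CPM in hemangiosarcoma and 191 to 381 CPM in normal spleen.

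Of 9 lymphoid miRNAs, 6 fell and none rose, with a median log2 fold change of -1.08 (-0.37 with library totals). With library totals none of the 6 was called, and 1 other member, mir-181d, was called higher. Mir-150, which marks mature lymphocytes, was at 461, 1029, 165, 421 and 615 CPM in hemangiosarcoma, against 2709, 1538, 1303, 2090.1 and 2226 CPM in normal spleen. Every tumor was below every normal spleen, with replicate 3 the lowest (log2 fold change -1.87, SE 0.42, edgeR adjusted p = 0.00595), and the call held in all 15 leave-outs. Mir-155, induced when lymphocytes are activated, reached 477, 1001, 504, 589 and 609.6 CPM in hemangiosarcoma, against 1277, 1017, 1486, 1682 and 2073 CPM in normal spleen, without overlap. Mir-142, found in all blood cells, was at 3079, 6073, 2859, 772 and 2969.6 CPM in hemangiosarcoma, against 5119.8, 5396, 8282, 8789 and 9209.5 CPM in normal spleen. Replicate 2 lay within the normal spleens and replicate 4 was the lowest. Mir-142 and mir-155 fell by 1.22 and 1.24 on the log2 scale (edgeR adjusted p = 0.034 and 0.0209), calls lost without any of 7 and any of 3 libraries.

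Mir-181a, which tunes T cell receptor signaling, was at 2565 to 7988 CPM in hemangiosarcoma, against 8847 to 13757 CPM in normal spleen, mir-342 at 76.3 to 148 CPM in hemangiosarcoma, against 220.1 to 287 CPM in normal spleen and mir-28 at 891 to 2171 CPM in hemangiosarcoma, against 1793 to 5867 CPM in normal spleen. The calls of mir-181a and mir-28 ended without any of 7 libraries each, and that of mir-342 without hemangiosarcoma replicate 3 or normal spleen replicate 5. Mir-181a was counted at 2 hairpins alike. Mir-181b, mir-181c and mir-181d were not called. Mir-181d was called higher with library totals (log2 fold change 1.27, edgeR adjusted p = 0.0423). The same held with all reads on its hairpin (0.84, SE 0.29, edgeR adjusted p = 0.0475). The summed level of the lymphocyte markers mir-142, mir-150 and mir-155 was 1782 to 8103 CPM in hemangiosarcoma and 7952 to 13509 CPM in normal spleen, and the part of cell numbers in these falls was not tested. Mir-223, the marker of myeloid cells, was not called, at 73.3 to 286 CPM in hemangiosarcoma, against 77.9 to 237 CPM in normal spleen. Mir-146a, which dampens inflammatory signaling in myeloid cells and lymphocytes, was at 1174, 2262, 895, 2085 and 1504 CPM in hemangiosarcoma, against 2994, 2895, 3599.6, 3349.5 and 5029 CPM in normal spleen, without overlap (log2 fold change -1.17, SE 0.30, edgeR adjusted p = 0.0118), a call lost without normal spleen replicate 5.

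Set against mir-126 within a library, a measure that no scaling changes, mir-150 and mir-142 were lower in every tumor than in any normal spleen. These pairs were chosen with the results known, and their ratios are a description. The log2 ratio of mir-126 to mir-150 counts was 3.04, 1.55, 6.38, 4.34 and 4.18 in hemangiosarcoma, against -0.10, 0.49, 0.96, 0.39 and 0.17 in normal spleen. That of mir-126 to mir-142 was 0.30, -1.01, 2.27, 3.46 and 1.91 in hemangiosarcoma, against -1.02, -1.32, -1.71, -1.68 and -1.88 in normal spleen, with 1 tumor, replicate 2, next to the normal spleens. Set against mir-143, mir-142 and mir-150 overlapped between the groups: the log2 ratio of mir-142 to mir-143 was -7.67 to -4.80 in hemangiosarcoma and -7.67 to -5.20 in normal spleen, and that of mir-150 to mir-143 was -10.09 to -7.73 in hemangiosarcoma and -8.92 to -7.25 in normal spleen.

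Of 6 tested miRNAs of smooth muscle and fibroblasts, mir-143 and mir-140 fell and 4 were not called, with a median log2 fold change of -0.76. The summed markers of these cells were at 83931 to 512972 CPM in hemangiosarcoma and 348048 to 1053985 CPM in normal spleen, mostly as mir-143. Mir-143 was at 500792, 236095, 79364, 157268 and 130428 CPM in hemangiosarcoma, against 1042177, 742802, 357007, 496015 and 339304 CPM in normal spleen. Replicate 1 lay within the normal spleens, and the call (log2 fold change -1.43, SE 0.49, edgeR adjusted p = 0.0442) ended without any of 11 libraries (-1.98 to -1.10 over the 15 leave-outs). Its neighbor mir-145 was at 968 to 6732 CPM in hemangiosarcoma, against 4974 to 8101 CPM in normal spleen and was not called. Mir-140, a miRNA of cartilage and other connective tissue, was at 3695, 2361, 3033, 1296 and 1938 CPM in hemangiosarcoma, against 10686, 7517, 4281, 6039 and 4032 CPM in normal spleen. Every tumor was below every normal spleen (log2 fold change -1.40, SE 0.32, edgeR adjusted p = 0.00674), and the fall held with library totals (-0.79) and in all 15 leave-outs. The fibroblast miRNAs mir-199 and mir-214 had log2 fold changes of -0.17 and 0.20 and were not called.

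Mir-26a, mir-26b and mir-101, which share the messenger RNA of the histone methyltransferase EZH2 as a known target, all fell, 3 of 3. Mir-26a was at 26594, 34793, 12551, 18132 and 14955 CPM in hemangiosarcoma, against 56240.1, 56151, 43037, 57250.4 and 47642 CPM in normal spleen. No tumor reached the lowest normal spleen (log2 fold change -1.28, SE 0.27, edgeR adjusted p = 0.00541), and the call held in all 15 leave-outs but not with library totals (-0.65). Mir-26b and mir-101 fell by 1.00 and 1.18 on the log2 scale. Mir-26b was lost without hemangiosarcoma replicate 3 or 5 or normal spleen replicate 5, and mir-101 without hemangiosarcoma replicate 5 or normal spleen replicate 1. Mir-26a and mir-101 were each counted at 2 hairpins with nearly equal counts.

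In the let-7 family, which restrains RAS and other growth genes, 2 of 7 tested miRNAs fell and none rose, beside 22 of 250 that fell in all. Let-7f was at 15124, 13813, 13278, 15129 and 10859 CPM in hemangiosarcoma, against 30808, 28448, 20113, 31421 and 21214 CPM in normal spleen, without overlap (log2 fold change -0.95, SE 0.20, edgeR adjusted p = 0.00541), and the call held in all 15 leave-outs. Let-7g was at 13189 to 21242 CPM in hemangiosarcoma, against 23173 to 29456 CPM in normal spleen; its fall of 0.58 on the log2 scale ended without any of 9 libraries and became 0.018 with library totals. Let-7a, let-7b, let-7c, let-7e and mir-98 were not called, although let-7e was called higher with library totals. Counting could divide reads between such close relatives.

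Of 5 mir-30 miRNAs, mir-30b and mir-30e fell and 3 were not called, with a median log2 fold change of -0.49 beside 0.03 over all 250. Mir-30b was at 803 to 1664 CPM in hemangiosarcoma, against 1968 to 2507 CPM in normal spleen, a call lost without hemangiosarcoma replicate 3 or normal spleen replicate 5. Mir-30e was at 839, 549.6, 682, 324 and 418 CPM in hemangiosarcoma, against 2600.2, 1444, 883, 1376 and 936 CPM in normal spleen (log2 fold change -1.36, SE 0.33, edgeR adjusted p = 0.00978). Mir-30a, 1 of the 10 most abundant miRNAs, was at 10652 to 22318 CPM in hemangiosarcoma, against 17116 to 31395 CPM in normal spleen and was not called; its log2 fold change of -0.49 was 0.16 with library totals. The mature counts of mir-30e were a minor part of its hairpin: reads outside the annotated mature sequence made up 86.6, 89.9, 85.9, 94.5 and 92.0% in hemangiosarcoma, against 58.1, 74.1, 87.2, 82.0 and 85.2% in normal spleen. With all reads on the hairpin, mir-30e was not called (log2 fold change -0.11, SE 0.16, edgeR adjusted p = 0.693).

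In 30 of the 250 miRNAs, among them the called mir-126, mir-193a, mir-424, mir-139 and mir-30e, over 50% of the hairpin reads lay outside the annotated mature sequence in both groups. With all reads on the hairpin 260 miRNAs were tested and 60 were called, among them 48 of the 56. Of the 56, 8 were lost, and 12 calls were new, 11 of them among the 250. The 8 were mir-30e, mir-181a, mir-142, let-7g, mir-28, mir-143, mir-206 and mir-25. No miRNA was called both ways in opposite directions. Mir-505, singled out after its values were seen, came nearest: its mature reads were higher in every tumor, at 3.83 to 8.04 CPM in hemangiosarcoma, against 1.82 to 3.69 CPM in normal spleen (log2 fold change 1.01, edgeR adjusted p = 0.0757, not called), while its whole hairpin fell (log2 fold change -1.01, SE 0.33, edgeR adjusted p = 0.0331), with 89.6% to 98.1% of its reads outside the mature sequence in hemangiosarcoma and 98.9% to 99.6% in normal spleen. Mir-708, singled out likewise, was not called by mature reads (log2 fold change -0.33) and fell by its whole hairpin (log2 fold change -1.20, SE 0.29, edgeR adjusted p = 0.00857).

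Of the erythroid miRNAs, mir-451 fell and mir-144, its neighbor, was not called. Mir-451, which is cut without Dicer and is the main miRNA of red cells, was at 32154, 32522, 45735, 13728 and 17913 CPM in hemangiosarcoma, against 39776, 53223, 129529.6, 99119 and 41054 CPM in normal spleen. Replicate 3 overlapped the normal spleens, and the call (log2 fold change -1.35, SE 0.43, edgeR adjusted p = 0.0332) ended without any of 5 libraries (-1.50 to -1.04 over the 15 leave-outs). Mir-144 was at 10155, 13859.8, 8257, 1821 and 3553 CPM in hemangiosarcoma, against 4838, 6872, 21553, 13081 and 5498 CPM in normal spleen, with overlap. The 2 summed to 15549 to 53992 CPM in hemangiosarcoma and 44614 to 151082 CPM in normal spleen, and mir-486, another red cell miRNA, was not analysed here. Mir-652, at 352, 424, 169, 403 and 357 CPM in hemangiosarcoma, against 702, 781, 939, 912 and 845 CPM in normal spleen, fell without overlap (log2 fold change -1.29, SE 0.32, edgeR adjusted p = 0.011), in all 15 leave-outs. Mir-25 fell by 0.72 on the log2 scale, a call lost without any of 14 libraries.

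Markers of other tissues were read in the same way. Of 7 tested miRNAs of striated muscle mir-206 alone was called, and fell, at 0.487 to 4.43 CPM in hemangiosarcoma, against 4.12 to 13.4 CPM in normal spleen, a call lost without any of 12 libraries. Mir-1, of heart and skeletal muscle, was at 5044, 4310.4, 387, 717 and 1466 CPM in hemangiosarcoma, against 13993, 13943, 6520.2, 6831 and 4496 CPM in normal spleen and was not called (log2 fold change -1.94, SE 0.76, edgeR adjusted p = 0.0783). The summed level of the striated muscle markers was 1039.5 to 5479 CPM in hemangiosarcoma and 4999.7 to 14459.9 CPM in normal spleen, there mostly as mir-1. Among 6 tested epithelial miRNAs mir-203, a miRNA of epidermis, fell, at 16.5, 21.4, 4.38, 3.13 and 7.49 CPM in hemangiosarcoma, against 37.3, 32.3, 28.9, 35.7 and 33.0 CPM in normal spleen (log2 fold change -1.65, SE 0.47, edgeR adjusted p = 0.0209), a call lost without hemangiosarcoma replicate 5. The summed epithelial markers were at 9.26 to 32.3 CPM in hemangiosarcoma and 39.6 to 50.9 CPM in normal spleen, there mostly as mir-203. The other 5 tested were not called. Their log2 fold changes were -0.80, -0.52 and -0.27 for mir-200a, mir-200c and mir-141, and 1.97 and 1.83 for mir-429 and mir-205. Mir-429 and mir-205 had no more than 12 and 10 counts in any of the 10 libraries. Mir-122, which makes up most of the miRNA of hepatocytes, was at 3.41 to 96.7 CPM in hemangiosarcoma, against 18.6 to 61.6 CPM in normal spleen and was not called.

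In several families few or no members were called. Mir-148a, the third most abundant miRNA of these libraries, was at 83476, 49223, 160844, 7605 and 47983 CPM in hemangiosarcoma, against 229128, 152962, 60746, 125318 and 63871 CPM in normal spleen and, like mir-148b and mir-152 of its family, was not called (log2 fold change -0.86, SE 0.59, edgeR adjusted p = 0.342). None of 3 mir-29 miRNAs, which repress collagens, was called, none of 3 of the mir-183 cluster of sensory organs, and none of 28 of the imprinted Dlk1-Dio3 cluster, with median log2 fold changes of 0.19, -0.01 and -0.17. Mir-497 was the called member of the 5 in the mir-15 and mir-16 family, mir-125a of the 4 in the mir-125, mir-99 and mir-100 family, mir-146a of the 4 myeloid and inflammatory miRNAs, and mir-9 of the 8 neural ones, with medians of 0.10, 0.19, -0.14 and 0.24. Of the 9 listed for pancreas and liver, 2 were called.

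High levels of pancreas miRNAs were seen in 1 tumor, hemangiosarcoma replicate 3. Mir-375, an abundant miRNA of pancreatic islets, was at 0.402, 0.886, 3486, 6.05 and 1.92 CPM in hemangiosarcoma, against 5.94, 2.05, 1.37, 2.23 and 0.868 CPM in normal spleen. The acinar cell miRNAs mir-216a, mir-216b and mir-217 had 24, 88 and 21 counts in replicate 3, no more than 2 in any other tumor, and 1 count each over the 5 normal spleens. Mir-592, for which no list was made, was at 5.62, 1.92, 365, 3.13 and 0.696 CPM in hemangiosarcoma, against 1.32, 0.228, 0.962, 0.893 and 1.52 CPM in normal spleen. Mir-375 and mir-592 were called higher (8.17 and 6.23 on the log2 scale), and without replicate 3 their log2 fold changes were 0.09 and 1.65 and neither was called. Mir-216b was called too, but with 2 counts in replicate 1, 88 in replicate 3 and 0 in the other 3 tumors no fold is given. The 4 pancreas markers summed to 3518 CPM in replicate 3 and had a median of 1.92 CPM over the tumors, against 0.868 to 6.60 CPM in normal spleen, and their part in the other values of this tumor was not tested. Without it 54 miRNAs were called, 41 higher and 13 lower.

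**Figure D5:**
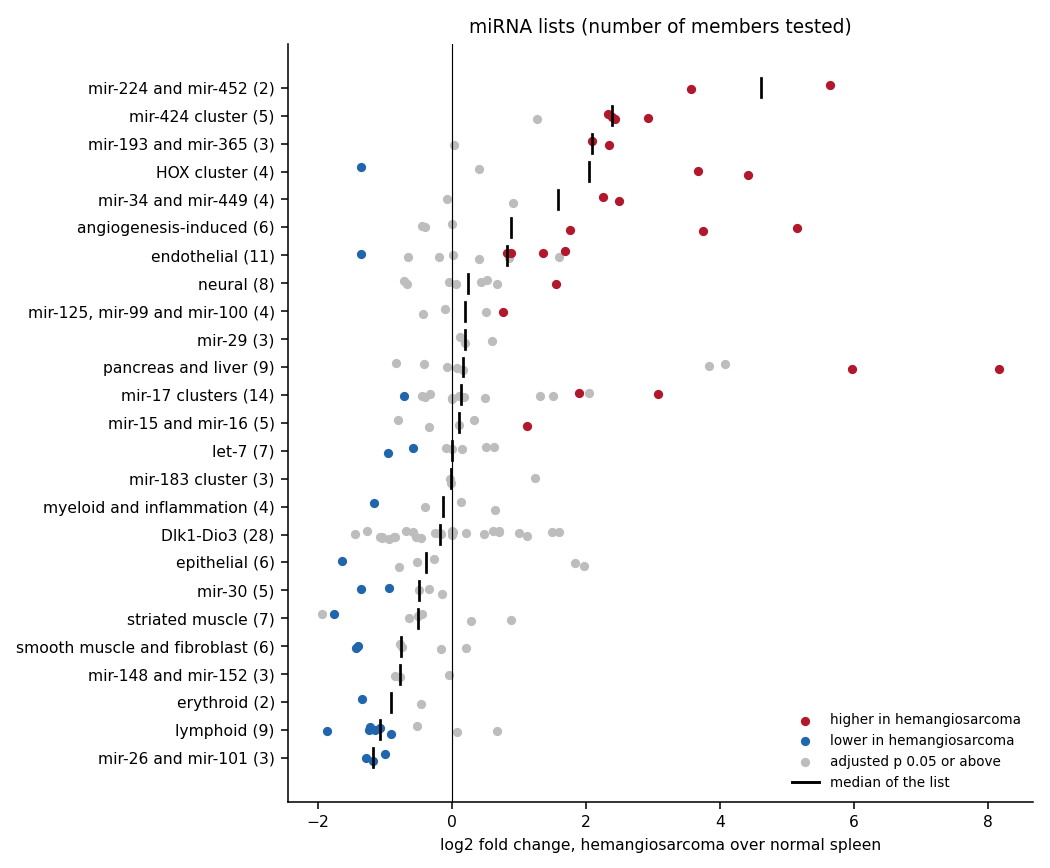
Log2 fold change (x axis), hemangiosarcoma over normal spleen, of the tested members of 25 miRNA lists (rows, with the number tested); colors mark calls and bars the list medians. The mir-26 and mir-101 list and the lymphoid list lie to the left of 0, with medians of -1.18 and -1.08, and the mir-224 and mir-424 lists to the right, with 4.61 and 2.39.

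Tumors differed in how many of the called miRNAs they carried at tumor-like levels. Of the 34 miRNAs called higher, 27, 19, 31, 32 and 31 were above the highest normal spleen in hemangiosarcoma replicates 1 to 5. Of the 22 called lower, 17, 19, 19, 22 and 22 were below the lowest normal spleen. These values belong to the calls they are counted over and are a description. Over all 250 miRNAs, 63, 65, 90, 73 and 82 were above the highest normal spleen in replicates 1 to 5, and 68, 64, 74, 85 and 76 below the lowest. Over all miRNAs, replicate 2, with 19 of the 34, did not have the fewest above the highest normal spleen (65, against 63 in replicate 1). It did have the fewest below the lowest, 64. Replicate 2 was within or below normal spleen for mir-132, mir-212, mir-210, mir-92b and mir-21. In all, 32 of 250 miRNAs (12.8%) did not overlap between the groups in TMM-scaled CPM, and 28 of them were called, 14 in each direction. The 4 that were not called were mir-301b, mir-505 and mir-33b, higher, and mir-92a, lower. For falls this can depend on the scaling. As a share of mature counts mir-26a overlapped, at 1.07 to 4.62% in hemangiosarcoma and 2.78 to 5.02% in normal spleen. So did let-7g, at 1.32 to 2.69% in hemangiosarcoma and 1.37 to 2.44% in normal spleen. Mir-101, which overlapped in CPM, did not, at 1.42 to 1.95% in hemangiosarcoma and 2.10 to 2.97% in normal spleen.

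Neighboring miRNAs were compared as a description. By the order of genes in a RefSeq annotation of another dog assembly, 116 of the 250 miRNAs lay in 42 clusters with gaps of up to 10000 bases. In 26 clusters (28 with library totals) all members had a fold change of 1 sign. Of the 56 calls 23 were in clusters, 16 rises and 7 falls. There were 19 clusters with a called member and 0 with calls in both directions. At least 2 rises were held by 4, those of mir-132, mir-224, mir-424 and mir-23a, and at least 2 falls by 0. The mir-23a cluster reached 2 only with mir-24, which cannot be ascribed to that cluster or to the mir-23b cluster. A miRNA with hairpin copies in more than 1 cluster, such as mir-24 or mir-181a, entered each with its summed value. The clusters are therefore not all separate units. With so few clusters holding more than 1 call, opposite calls had little room to occur. Mir-143 and mir-145, mir-451 and mir-144, mir-30b and mir-30d, and mir-181a and mir-181b each had 1 called member and 1 that was not, with log2 fold changes of the same sign. With library totals the signs differed between mir-30b (-0.34) and mir-30d (0.16) and between mir-181a (-0.29) and mir-181b (0.06). Other called miRNAs had an uncalled neighbor of opposite sign with TMM. Examples were mir-25 (-0.72) with mir-106b (0.50), mir-27a (0.88) with mir-23a (-0.20), and mir-188 (1.26) with mir-500 (-0.65).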

How the data were processed

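The authors sequenced small RNA from 15 spleens, checked reads with FastQC, trimmed them, left out reads under 15 nucleotides and counted the rest in CLCbio against the dog hairpins of miRBase release 20; the submitters' notes name the build canFam3, with tool versions not given in the sources used here. What was deposited is a raw count for each hairpin, not normalized, on the mature sequence of each arm and elsewhere on the hairpin. A column named as expression value repeats the mature count of the 5' arm and was not used. Mature counts of both arms and of hairpin copies were added by name; the deposited tables count a read at each identical copy (25 of 29 such miRNAs have copies that differ by under 10%).

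The fit held all 15 libraries in 3 groups and used edgeR 4.0.16 under R 4.3.3 (TMM, quasi-likelihood test, at least 10 counts in all, Benjamini-Hochberg threshold 0.05); SE was obtained by dividing a log2 fold change, without its sign, by the root of F. Alternatives used DESeq2 1.42.0, limma 3.58.1, other scalings and filters, and each library left out. Exact permutation over the 252 splits served single values. Scripts ran in Python 3.11.15 with numpy 2.4.6, pandas 2.3.3 and matplotlib 3.10.9 and were tested on simulated data. Named are calls that reached 10 CPM in the mean of a group, the 10 most abundant miRNAs and examples from 25 lists; the 3 calls under that level are given where they belong to a list. Members and lists were chosen with earlier results of these data known. Sequences and seed families are not analysed here. Genes of RefSeq's UU_Cfam_GSD_1.0 matched 310 of 313 hairpins and served for neighbors only. Intervals of depth cover counting error only.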

Additional observations from a re-analysis of the deposited data

Results flagged for a closer look

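In 4 of 120 groups of 5 libraries looked at, 1 library stood apart from the other 4 by Dixon's criterion, in each case a tumor; chance alone marks about 1 group in 20. Mir-375 was at 3486 CPM in hemangiosarcoma replicate 3 and at 0.402 to 6.05 CPM in the other tumors. Mir-592 was at 365 CPM in the same tumor and at 0.696 to 5.62 CPM in the others. Mir-652 was low in it, at 169 CPM with the others at 352 to 424 CPM. Mir-193a was low in hemangiosarcoma replicate 2, at 28.6 CPM, with the others at 102 to 164 CPM. The cause of these values was not tested.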

How the results depend on the processing

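The count of 56 calls was 36 to 61 over the 15 leave-outs, with 20 to 41 rises and 9 to 21 falls; it was 64 with DESeq2, which gave no adjusted p for mir-216b, mir-375 and mir-592, and 46 with limma voom, 49 with limma on log2(CPM + 1), 47 with library totals, 54 without a filter, 46 with at least 10 CPM in 5 libraries, 44 with 10 libraries only and 60 with all hairpin reads. Beyond 1.5 times the value given were 22 rises with limma voom, 10 falls with 10 libraries only and 1 fall with library totals; the cause was not tested. With library totals let-7g (0.018) and mir-30a (0.16) changed sign, as mir-10b did without hemangiosarcoma replicate 3 (-0.056, with -0.056 to 0.82 over the leave-outs). Chosen after seeing the data were 1 copy per miRNA (56 calls), reads that map to 1 hairpin (47) and leaving mir-143 out of the counts (52). The difference in the mir-143 share, -17.4 percentage points, was -21.0 to -13.2 over the leave-outs, and passed after adjustment without hemangiosarcoma replicate 1, as did that in reads outside the mature sequence (8.05, with 6.04 to 9.78 over the leave-outs, and 0.62 without the mir-126 hairpin). The difference in the share of the 3 most abundant miRNAs (-1.87) was -4.67 to 0.36, with 0.18 without hemangiosarcoma replicate 2 and 0.36 without normal spleen replicate 1. The share of distances between groups was 0.334 to 0.468 over the leave-outs, each time past the threshold. With the replicate block 43 miRNAs were called, 23 higher and 20 lower. The numbers name different dogs and do not pair them: same-numbered libraries had correlations of 0.30, -0.10, -0.06, 0.12 and 0.32, and only tumor replicates 1 and 5 were nearest to their own number. The fits of seed families were not run. At these depths a miRNA under about 1 CPM rests on a few reads.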
